A study of Mus musculus with 2 samples.

Results

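AMPA receptors and the proteins that travel with them were followed here through 9 genes, Gria1, Gria2, Gria3, Gria4, Cacng2, Cacng3, Cacng8, Cnih2 and Cnih3, taken by their symbols from the 32285 genes of the deposited tables. The material was nuclei from the hippocampus of C57BL/6J mice that received adeno-associated virus (AAV) in both lateral ventricles on postnatal day 0 and were taken at 6 weeks of age. In the AAV-TAU group the vector carried wild-type human tau in its full-length 2N4R form. In the AAV-STOP control group the human MAPT sequence had a stop codon near its start, so that the transcript is made without tau protein. Tissue of 3 mice was pooled into 1 library in each group, so every group has 1 value and no spread between animals is known. For that reason no test was made: each value carries an exact 95% interval that covers counting error only, and a difference is described by its size. Both vectors carry human MAPT and the gene list holds mouse Mapt only, so the transgene gave no check of the labels. The promoter of the vectors is not given in the sources used here.

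AMPA receptors carry most fast excitatory transmission in the brain. Each receptor is built of pore subunits, GluA1 to GluA4, encoded by Gria1 to Gria4, and its conductance, gating and traffic depend on auxiliary proteins that sit beside the pore. Among these are the transmembrane AMPA receptor regulatory proteins (TARPs), encoded by Cacng2, Cacng3 and Cacng8, and the cornichons encoded by Cnih2 and Cnih3. GluA2 has a special place: its RNA is edited in the pore loop by the enzyme ADAR2, and receptors that hold edited GluA2 pass little calcium, while receptors without it are calcium permeable. The share of Gria2 among the pore subunit transcripts is therefore a usual way to set cell types side by side.

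The edited codon is the reason to look at the pore-loop sequences of the pore genes. Each of the following 33-base stretches was read from the coding exon of GENCODE vM21 transcripts (GRCm38, the build named mm10) and is written in the direction of transcription, with the codon of the Q/R site in capitals.
Gria1: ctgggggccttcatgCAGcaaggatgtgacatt
Gria2: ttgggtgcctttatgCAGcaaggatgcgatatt
Gria3: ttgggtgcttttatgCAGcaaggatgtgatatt
Gria4: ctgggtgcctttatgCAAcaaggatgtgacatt
The Gria1 stretch lies at chr11:57243079-57243111 on the plus strand, in exon 11 of 16 of its transcript. The Gria2 stretch lies at chr3:80706896-80706928 on the minus strand, in exon 11 of 16. The Gria3 stretch lies at chrX:41610250-41610282 on the plus strand, in exon 11 of 16. The Gria4 stretch lies at chr9:4464122-4464154 on the minus strand, in exon 12 of 17. The capitals spell glutamine in all 4 genes, so the genome does not set Gria2 apart at this site. Gria2 and Gria3 differed at 2 of 33 bases, Gria1 and Gria4 at 3, and the other pairs at 4 or 5. The deposited UMI counts say how many transcripts of a gene were caught and not whether they were edited.

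The AAV-TAU library held 19596 barcodes with a median of 5119 UMIs, and the AAV-STOP library 20265 barcodes with a median of 5750. After filters and removal of marked doublets, 17857 AAV-TAU and 17945 AAV-STOP nuclei were kept, of which 91 barcodes were present in both libraries. Mitochondrial UMIs made up 0.281% of the median AAV-TAU nucleus and 0.174% of the median AAV-STOP nucleus. Clusters were named from marker genes after the 9 genes and their pathway had been taken out of the clustering, so the levels below did not enter it. These genes were not taken out of the marking of doublets, so they could bear on which nuclei were removed. There were 14 named classes with 100 or more nuclei in both libraries, 5 subtypes of inhibitory neurons, and 6 larger clusters that the naming rule left without a name and that are called by number. Cluster 7 was led by the glial genes Atp13a4, Slco1c1 and Mertk and had all 8 astrocyte markers raised, but the cortical marker Rorb among its leading genes kept it unnamed. Clusters 9, 11, 13, 14 and 17 were led by Camk2d and Otof, by Fras1 and Klhl1, by Npsr1 and Tshz2, by Baiap3 and Glra3, and by Col6a1 and Vgll3. The names are rebuilt from markers and are not the authors' own.

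Levels are given as CPM, the UMIs of a gene per 1000000 UMIs of a population in 1 library. Gria1 (ENSMUSG00000020524, chr11:57011387-57330244) was highest in principal and inhibitory neurons and low in glia. CA1-like pyramidal neurons had 3516 CPM (3486 to 3548) in AAV-TAU and 3579 (3551 to 3608) in AAV-STOP. CA2-like neurons had 3375 and 3371 CPM, granule-like neurons of the dentate gyrus 3196 and 3362, inhibitory neuron-like nuclei 3154 and 3038 and CA3-like neurons 2846 and 2879, AAV-TAU first in each pair. The CA1-like level was apart from the CA2-like level, and the CA2-like level from the granule-like one, both libraries of one lying above both of the other. Between CA2-like and granule-like neurons this rule was met only narrowly, at 3371 against 3362 CPM in AAV-STOP. Granule-like neurons were not apart from cluster 17 (3084 and 3279 CPM) by this rule, nor cluster 17 from inhibitory neuron-like nuclei, while inhibitory neuron-like nuclei were apart from CA3-like neurons. Subicular or cortical-like neurons had 830.0 CPM in AAV-TAU and 812 in AAV-STOP, the lowest Gria1 level of a named neuronal class. Cluster 13 was lower still, at 405 CPM in AAV-TAU and 461 in AAV-STOP. The lowest level was in newly formed oligodendrocyte-like nuclei, at 313 and 228 CPM, and the highest class mean was 13.1 times the lowest.

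Part of the signal in glia can be RNA set free from other nuclei, and microglia-like nuclei were used to show its size, as immune cells known for little transcription of these receptor genes. Whether microglia transcribe a given member at a low level was not tested, and their nuclei are shallower than neuronal ones, so a level in CPM beside theirs does not settle how much of it is free RNA. Gria1 stood at 417 CPM in AAV-TAU and 556 CPM in AAV-STOP microglia-like nuclei. With every nucleus thinned to 1500 UMIs, 44.9% of AAV-TAU and 46.2% of AAV-STOP microglia-like nuclei held a Gria1 UMI, against 98.2% and 98.5% of granule-like nuclei. Without thinning the microglial shares were 55.3% and 59.0% at median depths of 1930 and 2240 UMIs, and the granule-like shares 99.8% and 99.9% at 5135 and 5364. Gria1 in oligodendrocyte-like nuclei (324 CPM in AAV-TAU, 313 in AAV-STOP) lay below the microglial level and is not read as expression.

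Gria2 (ENSMUSG00000033981, chr3:80681450-80802835) was the most evenly spread of the pore genes, with a highest class mean 4.68 times the lowest. Cluster 17 had 2237 CPM in AAV-TAU and 2290.4 in AAV-STOP, CA1-like neurons 2057 and 2132, CA3-like neurons 2051 and 2031 and granule-like neurons 1830.5 and 1962. Cluster 7, with its astrocyte markers, had 1496 CPM in AAV-TAU and 1612 in AAV-STOP, above inhibitory neuron-like nuclei at 1009.7 and 1113. Astrocyte-like nuclei had 1279 and 1262 CPM and oligodendrocyte precursor-like nuclei 1179 and 1309.5, all above the microglial 626 and 765. At equal depth 84.7% of AAV-TAU and 85.1% of AAV-STOP nuclei of cluster 7 held a Gria2 UMI, against 59.7% and 57.8% of microglia-like nuclei. Glial Gria2 was thus higher than in microglia-like nuclei in the astrocyte-marked and precursor populations, while oligodendrocyte-like nuclei lay below it (456 and 439 CPM).

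Gria3 (ENSMUSG00000001986, chrX:41400854-41678601) was led by cluster 11, at 1062 CPM in AAV-TAU and 1149.7 in AAV-STOP, and by cluster 9, at 786 and 1067. CA1-like neurons followed with 782 and 836 CPM, above granule-like neurons at 567 and 624 and CA3-like neurons at 479 and 518. The CA fields were thus unequal: Gria3 was lowest in CA3-like neurons in both libraries, with CA2-like neurons at 649 and 739.6 CPM. Immature neuron-like nuclei had 218 CPM in AAV-TAU and 208 in AAV-STOP, well below the granule-like level. Their Gria2 (1761 and 1826 CPM), by contrast, was close to that of CA2-like neurons (1796 in AAV-TAU and 1776 in AAV-STOP).

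Gria4 (ENSMUSG00000025892, chr9:4417896-4796234) had the widest range, 27.8-fold between the highest and the lowest class mean, and an order unlike that of the other pore genes. Inhibitory neuron-like nuclei had 1556 CPM in AAV-TAU and 1577 in AAV-STOP, Cajal-Retzius-like neurons, an early-born cell type of the outer layer, 1025 and 1095. Cluster 14, in which all 8 inhibitory markers were raised, had 873 and 860.2 CPM, cluster 13 had 903 and 817 and oligodendrocyte precursor-like nuclei 755 and 795. Among oligodendrocyte lineage populations Gria4 was lower at each later stage: newly formed oligodendrocyte-like nuclei had 507 CPM in AAV-TAU and 480.3 in AAV-STOP, and oligodendrocyte-like nuclei 258 and 236. Principal neurons were low, with 219.6 and 193 CPM in CA1-like, 188 and 166 in CA3-like, 144 and 139 in CA2-like and 119.8 and 147 in granule-like neurons. All of these lay above microglia-like nuclei (56.3 in AAV-TAU and 56.5 in AAV-STOP) in both libraries. At equal depth 15.2% of AAV-TAU and 17.7% of AAV-STOP granule-like nuclei held a Gria4 UMI, against 80.3% and 81.1% of inhibitory neuron-like and 7.29% and 6.94% of microglia-like nuclei.

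**Figure D1:**
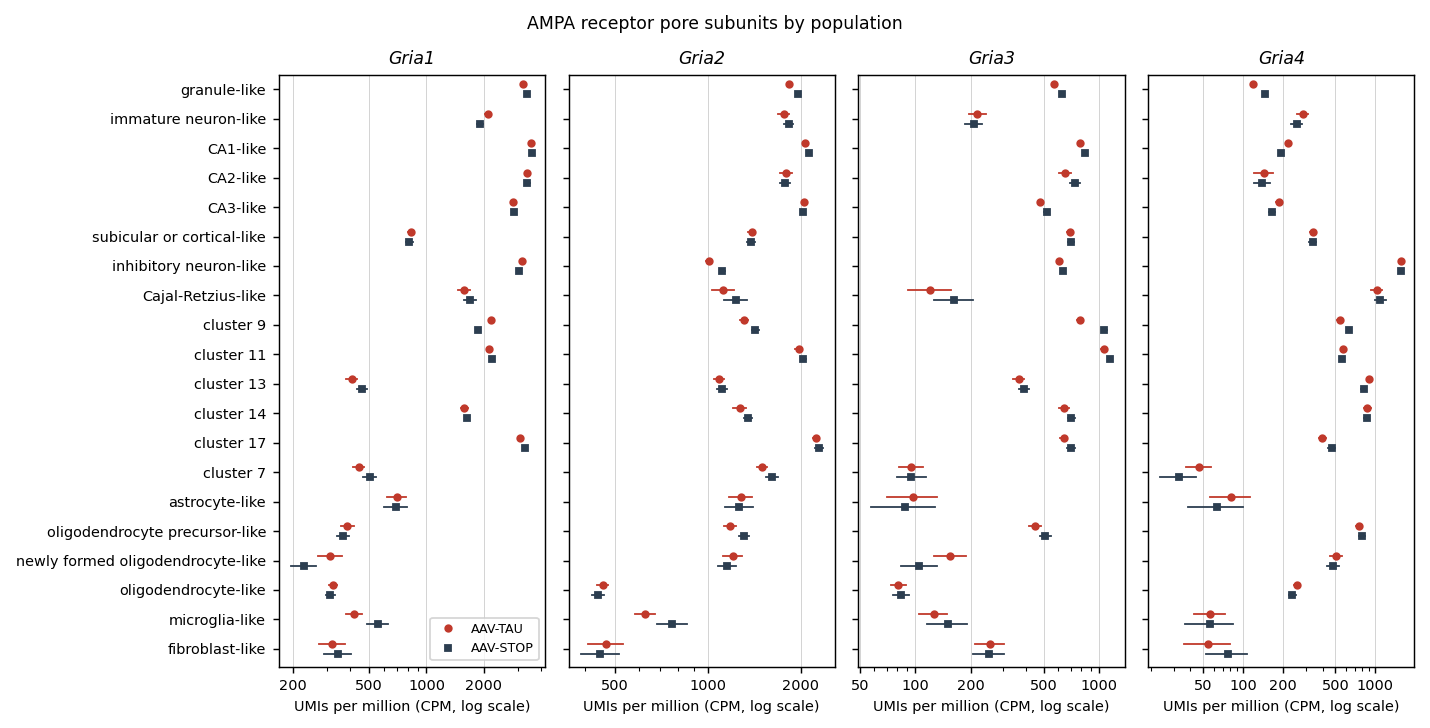
Levels of Gria1 to Gria4 in CPM (log scale) in 14 named classes and 6 numbered clusters. Red circles are AAV-TAU and dark squares AAV-STOP, with exact 95% Poisson intervals that cover counting error only. Gria4 is highest in inhibitory neuron-like nuclei (1556 and 1577 CPM), where Gria2 is low for a neuron (1009.7 and 1113 CPM).

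The makeup of the pore subunit transcripts separated inhibitory from principal neurons. Gria2 made up 16.0% (15.7 to 16.3) of all Gria1 to Gria4 UMIs in AAV-TAU inhibitory neuron-like nuclei and 17.5% (17.2 to 17.8) in AAV-STOP ones. In granule-like neurons its share was 32.0% in AAV-TAU and 32.2% in AAV-STOP, in CA1-like neurons 31.3% and 31.6%, in CA2-like neurons 30.1% and 29.5% and in CA3-like neurons 36.9% and 36.3%. The share of inhibitory neuron-like nuclei was thus 16.1 percentage points below that of granule-like neurons in AAV-TAU and 14.7 points below it in AAV-STOP. Immature neuron-like nuclei had a larger Gria2 share than granule-like ones, at 40.4% (39.2 to 41.6) in AAV-TAU and 43.6% (42.4 to 44.7) in AAV-STOP. The highest shares were glial: 72.0% and 71.8% in cluster 7, 59.3% and 59.9% in astrocyte-like nuclei and 55.3% and 58.7% in newly formed oligodendrocyte-like nuclei. In microglia-like nuclei the share was 51.1% in AAV-TAU and 50.1% in AAV-STOP. These are shares of UMIs, and since nuclear UMI counts also follow gene length, a share is set beside the same share in another population and not read as receptor stoichiometry.

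Inhibitory neurons were not of 1 kind. Subclustering gave a subtype name to 2014 of 2812 inhibitory nuclei. Gria2 made up 11.4% (10.8 to 11.9) of pore subunit UMIs in AAV-TAU and 11.9% (11.4 to 12.5) in AAV-STOP Pvalb-like cells, the basket and axo-axonic type. It made up 13.6% and 12.9% in Sst-like cells, which target dendrites, and 13.8% and 15.3% in Lamp5-like cells, which include neurogliaform cells. In Cck-like cells the share was 29.0% (27.3 to 30.6) in AAV-TAU and 29.5% (28.1 to 30.9) in AAV-STOP, and in Vip-like cells, many of which contact other interneurons, 38.7% (36.6 to 40.8) and 38.3% (36.4 to 40.1). The Pvalb, Sst and Lamp5 types thus lay far below principal neurons, while the Cck type came near granule-like neurons and the Vip type lay above them.

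Gria1, Gria3 and Gria4 varied more over the subtypes than Gria2 itself. Gria2 ran from 687 to 1143 CPM over the 5 AAV-TAU subtypes and from 787 to 1238 CPM over the AAV-STOP ones. Gria1 was at 3690.5 CPM in AAV-TAU and 3503 in AAV-STOP Pvalb-like cells and at 3493 and 3733 in Sst-like cells, but at 1131 and 1207 in Cck-like and 835 and 1061 in Vip-like cells. Gria3 was at 957 and 1020.2 CPM in Pvalb-like and 1021 and 1103 in Sst-like cells, against 123 and 179.5 in Cck-like and 95.8 and 107 in Vip-like cells. In CPM, Gria3 in the Cck and Vip types was close to microglia-like nuclei, which had 126 CPM in AAV-TAU and 151 CPM in AAV-STOP. Gria4 was highest in Pvalb-like cells (2402 and 2611 CPM) and lowest in Vip-like cells (879 and 829.8 CPM), with Cck-like cells next to these (909.5 and 1187).

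**Figure D2:**
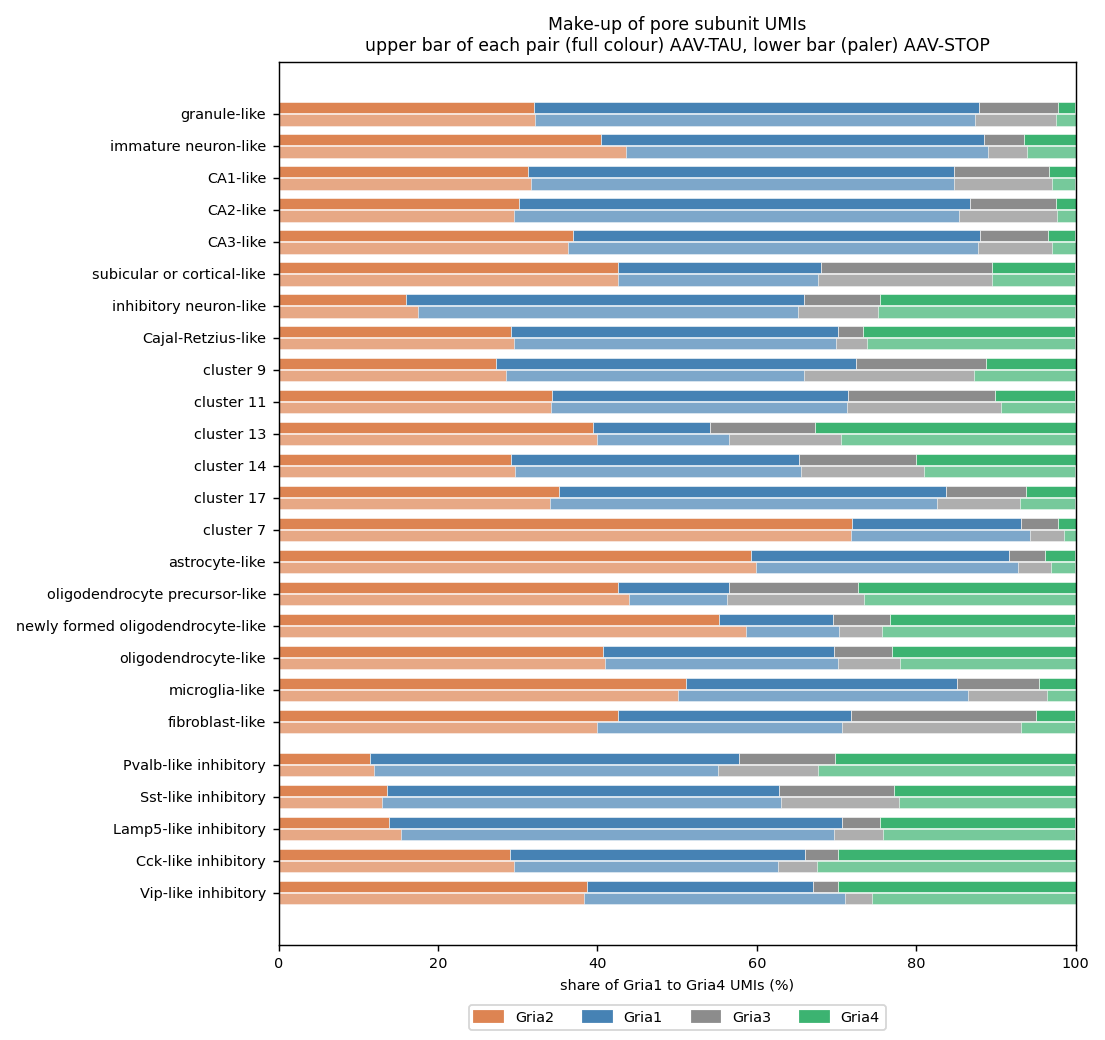
Share of each pore gene in all Gria1 to Gria4 UMIs (percent) by population. In each pair the upper, full-colour bar is AAV-TAU and the lower, paler bar AAV-STOP. Gria2 takes 11.4% to 13.8% in AAV-TAU and 11.9% to 15.3% in AAV-STOP in the Pvalb, Sst and Lamp5 types, against 32.0% and 32.2% in granule-like neurons.

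**Figure D3:**
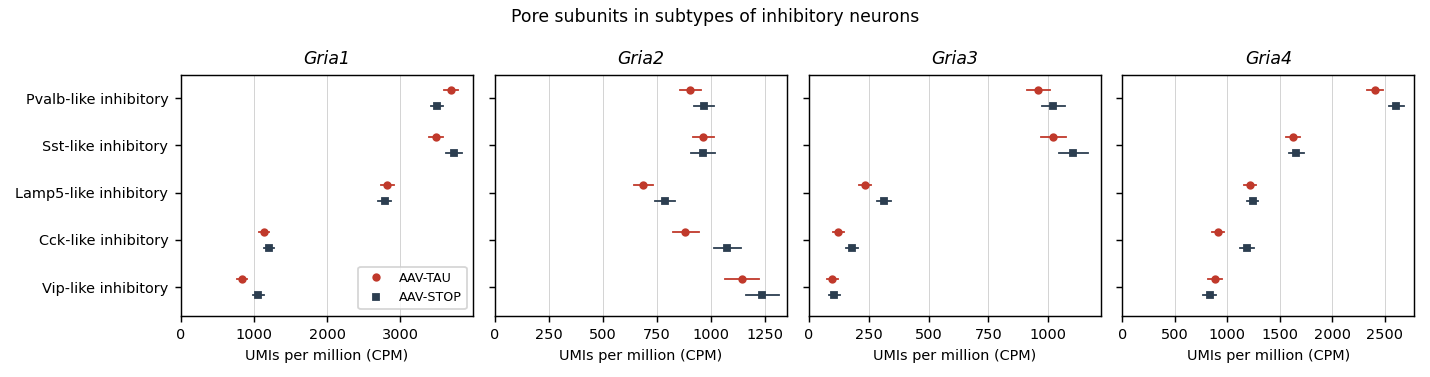
Levels of the pore genes in CPM in 5 subtypes of inhibitory neurons. Red circles are AAV-TAU and dark squares AAV-STOP, with exact 95% Poisson intervals. Gria1 and Gria3 are high in the Pvalb and Sst types and low in the Cck and Vip types, with Lamp5 high for Gria1 (2825 and 2788 CPM) and low for Gria3 (235 and 315 CPM).

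The TARP genes divided the neuronal classes in another way. Cacng2 (ENSMUSG00000019146, chr15:77991748-78120028), which encodes stargazin, the founding TARP, was highest in inhibitory neuron-like nuclei, at 106 CPM (99.2 to 113) in AAV-TAU and 103 (96.8 to 109.9) in AAV-STOP. Within them Pvalb-like cells had 163 CPM in AAV-TAU and 160.3 in AAV-STOP. CA3-like neurons had 79.2 and 80.0 CPM, granule-like neurons 52.3 and 52.1 and CA1-like neurons 30.8 and 24.2. The order CA3, dentate gyrus, CA1 held in both libraries with no overlap between neighbours. In CPM the CA1-like level was not apart from that of microglia-like nuclei (21.9 in AAV-TAU, 28.2 in AAV-STOP). Per nucleus, CA1-like neurons held 0.228 Cacng2 UMIs in AAV-TAU and 0.186 in AAV-STOP, against 0.0441 and 0.0694 in the shallower microglia-like nuclei. CA2-like neurons, with 10.4 and 5.55 CPM from 11 and 8 UMIs, and cluster 11, with 8.87 and 7.43 CPM, lay below the microglial level.

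Cacng3 (ENSMUSG00000066189, chr7:122670492-122769393), a TARP gene close in sequence to Cacng2, had 148 CPM in both libraries in granule-like neurons, 126 in AAV-TAU and 129 in AAV-STOP inhibitory neuron-like nuclei and 108 and 131 in CA1-like neurons. CA3-like neurons had 39.8 CPM in AAV-TAU and 47.4 in AAV-STOP, so that Cacng2 and Cacng3 ran in opposite order between CA1-like and CA3-like neurons. In CPM this was near the microglial 33.4 and 25.9. Per nucleus, CA3-like neurons held 0.39 Cacng3 UMIs in AAV-TAU and 0.501 in AAV-STOP, against 0.0672 and 0.0636 in the shallower microglia-like nuclei. Among inhibitory subtypes Sst-like cells had the most Cacng3 (178 and 159.7 CPM) and Lamp5-like cells the least (55.0 and 57.7). In cluster 13 Cacng3 was at 141 CPM in AAV-TAU and 174 in AAV-STOP, and in cluster 9 at 119 and 267.

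Cacng8 (ENSMUSG00000053395, chr7:3390683-3415648), known as the TARP of hippocampal principal neurons, was highest in CA1-like neurons at 113 CPM in AAV-TAU and 115 in AAV-STOP. Granule-like neurons had 107 and 109 CPM, CA3-like neurons 92.9 and 103 and CA2-like neurons 66.3 and 63.8. Inhibitory neuron-like nuclei had 57.7 CPM in both libraries, and cluster 7 had 62.2 and 56.4, so the astrocyte-marked cluster was not apart from inhibitory neurons. Both lay above microglia-like nuclei (29.6 in AAV-TAU, 33.0 in AAV-STOP). As a share of the UMIs of the 3 TARP genes, Cacng8 took 75.3% (65.2 to 83.6) in AAV-TAU and 85.2% (77.1 to 91.3) in AAV-STOP CA2-like neurons, from 93 and 108 UMIs. It took 43.8% and 44.7% in CA3-like, 44.8% and 42.6% in CA1-like, 34.8% and 35.3% in granule-like and 19.9% in both libraries in inhibitory neuron-like nuclei. In cluster 7 it took 69.4% and 67.9%, and in cluster 13 8.33% and 9.27%.

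Of the cornichon genes, whose products slow receptor closing and help receptors leave the endoplasmic reticulum, only Cnih3 separated the classes. Cnih3 (ENSMUSG00000026514, chr1:181352628-181460641) was highest in immature neuron-like nuclei, at 139 CPM in AAV-TAU and 143 in AAV-STOP, followed by granule-like neurons at 119 and 119.7 and by clusters 9 (111 and 107) and 11 (94.6 and 97.2). CA1-like neurons had 67.2 and 60.1 CPM. CA3-like neurons had 11.9 CPM in AAV-TAU and 7.51 in AAV-STOP and CA2-like neurons 10.4 and 11.1, below the microglial 24.8 and 30.6. The step between CA1 and the other CA fields was thus present in both libraries. Per nucleus, CA3-like neurons held 0.117 Cnih3 UMIs in AAV-TAU and 0.0795 in AAV-STOP and CA2-like neurons 0.0957 and 0.113. The shallower microglia-like nuclei held 0.0499 and 0.0751. Cnih2 (ENSMUSG00000024873, chr19:5092868-5098521) ranged over only 2.52-fold between class means, and its highest level was in microglia-like nuclei (90.6 and 80.0 CPM). Granule-like neurons had 60.5 and 50.9 CPM, CA1-like neurons 56.2 and 47.8 and inhibitory neuron-like nuclei 36.2 and 35.7. At equal depth 8.34% of AAV-TAU and 7.85% of AAV-STOP granule-like nuclei held a Cnih2 UMI, against 10.8% and 8.56% of oligodendrocyte-like nuclei. Per nucleus the order was another: granule-like neurons held 0.324 Cnih2 UMIs in AAV-TAU and 0.286 in AAV-STOP, against 0.182 and 0.197 in microglia-like nuclei. How much of the neuronal Cnih2 signal was free RNA was not tested.

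**Figure D4:**
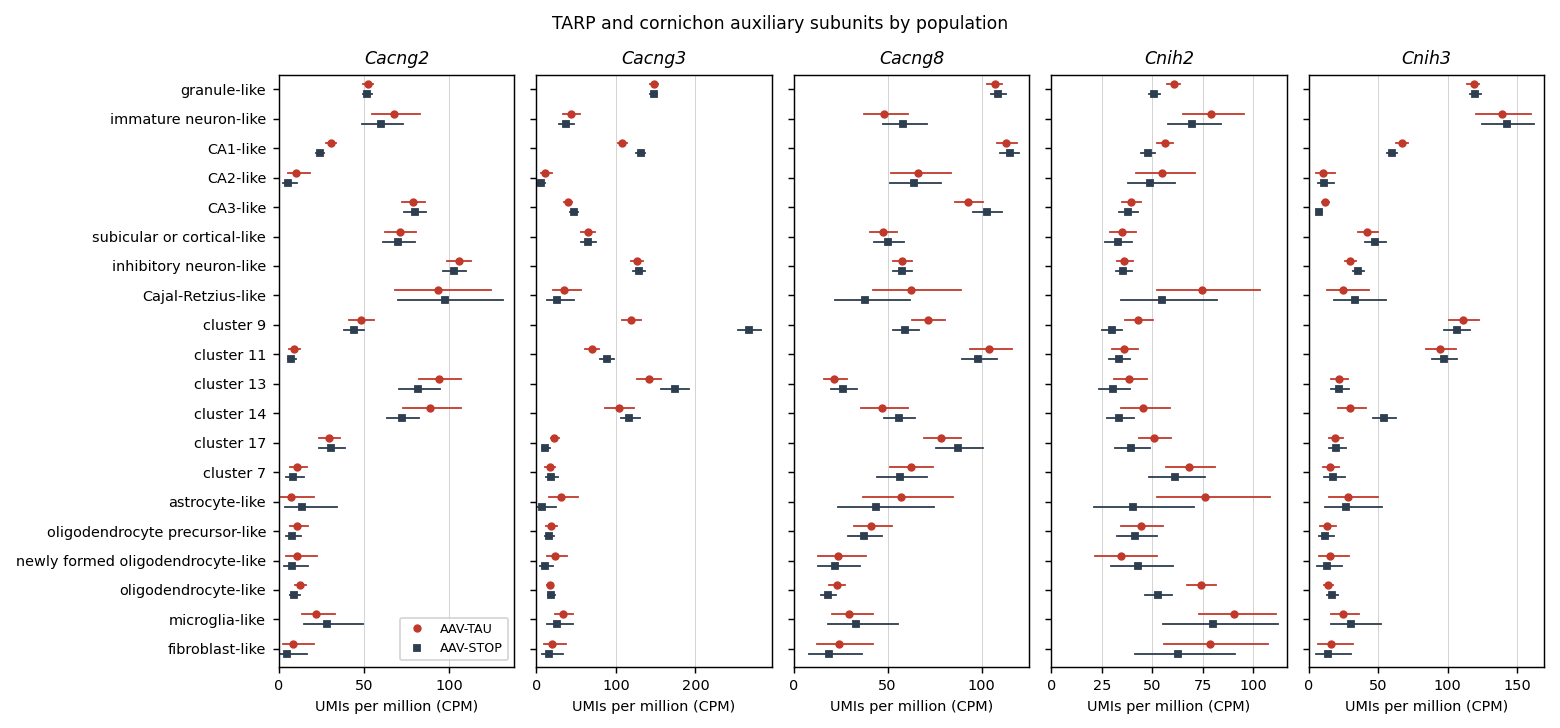
Levels of the TARP and cornichon genes in CPM (linear scale) in 14 named classes and 6 numbered clusters. Red circles are AAV-TAU and dark squares AAV-STOP, with exact 95% Poisson intervals. Cnih3 is near 10 CPM in CA2-like and CA3-like neurons and near 120 CPM in granule-like neurons, and Cacng3 in cluster 9 is the widest gap between the libraries (119 CPM in AAV-TAU, 267 in AAV-STOP).

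The levels over the 14 named classes were alike in both libraries, with a Pearson correlation from 0.833 for Cnih2 to 0.993 for Gria1, given as a description over 14 classes that share each library. Over the same classes Cacng8 ran with Gria1 (r = 0.904) and Gria2 (r = 0.854), Gria1 with Gria2 at 0.738, and Gria1 with Gria4 at only 0.128. Among 10650 other genes, the patterns most like Gria1 were those of Epha6 (r = 0.942), Cdh12 (0.937) and Kcnj6 (0.932). Closest to Gria2 were Apba2 (0.929), Dok6 (0.921) and Astn1 (0.917), to Gria3 Hivep2 (0.921), Lrfn2 (0.914) and the glutamate receptor gene Grm5 (0.904), and to Gria4 Kctd8 (0.907), Tle2 (0.874) and Vwc2 (0.864). Vwc2, which encodes the secreted protein brorin, is also on the list of receptor scaffolds and trafficking genes. Closest to Cacng2 were Vwa5b2 (0.872), Ddx10 (0.856) and Ube2o (0.853), to Cacng3 Zmat4 (0.948), Ntng1 (0.939) and Cnnm1 (0.918), and to Cacng8 Klhl3 (0.935), Inhba (0.930) and Plekhg5 (0.924). Closest to Cnih2 were Ncdn (0.897), Rrp7a (0.881) and Ptpra (0.873), and to Cnih3 Cntnap5a (0.913), Elmod1 (0.869) and Dpf1 (0.846).

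The second question of the design is whether these genes differed in level when human tau was expressed. Each ratio is the log2 of the AAV-TAU level over the AAV-STOP level after 5 CPM had been added to both, and a gene was read in a population where the library with the higher level had 100 or more UMIs and 20 CPM or more. A ratio of 1.2 or more, or its inverse or less, counts as past the fold. In granule-like, CA1-like, CA3-like and inhibitory neuron-like nuclei 35 of 36 pairs of gene and class were read, and 2 were past the fold: Gria4 lower in granule-like neurons and Cacng2 higher in CA1-like neurons. The other 33 differed by less than 1.2-fold on that scale. Of all genes read, 8.29% were higher and 0.283% lower in granule-like and 7.70% and 0.336% in CA1-like neurons. In CA3-like neurons the shares were 8.47% and 1.29%, and in inhibitory neuron-like nuclei 8.40% and 1.71%. With counts scaled by the median of ratios, 4 pairs were lower and none higher. Of all genes read with that scaling, 2.17% were lower and 4.18% higher in granule-like and 1.96% and 3.85% in CA1-like neurons. In CA3-like neurons these shares were 4.65% and 3.76%, and in inhibitory neuron-like nuclei 4.59% and 4.48%.

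In granule-like neurons all pore subunit genes were lower in AAV-TAU, Gria4 the most. Gria4 had 119.8 CPM (115 to 124) from 2702 UMIs in AAV-TAU and 147 CPM (143 to 152) from 4298 UMIs in AAV-STOP. The log2 ratio was -0.29, a ratio of counts of 0.815 (0.776 to 0.855). Of the 7055 genes read in this class, 0.283% were lower and 8.29% higher past the fold, and with median of ratios scaling 2.17% were lower. The 9 genes were chosen with a lower Gria4 in granule neurons of these data already known, so nothing is read from the count of 1 beside that share. Inside the class, all 4 finer clusters that could be compared had a lower Gria4 in AAV-TAU, with log2 ratios from -0.44 to -0.18. Here and below, finer clusters divide the nuclei of the same libraries. They are not replicates, and counts of them describe a class without adding support to its value. With clusters named at the finer resolution the ratio of the class was -0.26, just inside the fold. Gria3 (-0.14), Gria2 (-0.10) and Gria1 (-0.07) had smaller differences, with intervals below 1 and a lower level in 4 of 4 finer clusters each. Cacng2 (0.01), Cacng3 (0.00), Cacng8 (-0.03) and Cnih3 (-0.01) were level, with intervals that held 1, and the widest interval of these ratios of counts was 0.930 to 1.08. Cnih2 was at a log2 ratio of 0.23, with a ratio of counts of 1.19 (1.10 to 1.28).

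Several other features moved with the library in the same class, and their part in these ratios was not tested. The median log2 ratio of all genes read was 0.05, of genes over 100 kb -0.03 and of genes up to 10 kb 0.20. Gria1, Gria2, Gria3 and Gria4 span 319, 121, 278 and 378 kb and Cnih2 spans 5.65 kb. The median mitochondrial share was 0.269% in AAV-TAU and 0.169% in AAV-STOP granule-like nuclei. Summed oligodendrocyte markers were at 552 CPM in AAV-TAU and 502 in AAV-STOP, with 8 of 8 higher in AAV-TAU and none under 1 CPM in both. Inhibitory markers, whose cells are rich in Gria4, were at 156 CPM in AAV-TAU and 141 in AAV-STOP, with 6 of 8 higher and none under 1 CPM in both.

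In CA1-like neurons the TARP genes went in different directions. Cacng2 had 30.8 CPM (28.0 to 33.8) from 434 UMIs in AAV-TAU and 24.2 CPM (21.9 to 26.7) from 409 UMIs in AAV-STOP, a log2 ratio of 0.29 and a ratio of counts of 1.27 (1.11 to 1.46). It was higher in AAV-TAU in 4 of 4 finer clusters, while 7.70% of the 6843 genes read in this class were higher past the fold and 0.336% lower. The ratio was under 1.2-fold with finer clusters (log2 ratio 0.23), with marked doublets kept (0.24) and with median of ratios scaling (0.21). With doublets kept the class was without a cluster of 1543 nuclei that was then unnamed. Cacng3 had 108 CPM from 1529 UMIs in AAV-TAU and 131 CPM from 2202 UMIs in AAV-STOP. Its ratio of counts was 0.831 (0.778 to 0.887), its log2 ratio of -0.26 just inside the fold, and it was lower in 4 of 4 finer clusters. It was past the fold with a pseudocount of 1 CPM (-0.27) and with median of ratios scaling (-0.35). Cacng8 (113 and 115 CPM) had a log2 ratio of -0.02 and an interval that held 1.

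The pore genes of CA1-like neurons differed little. Gria1, Gria2 and Gria3 had log2 ratios of -0.03, -0.05 and -0.09, and Gria4 one of 0.18, with 219.6 CPM in AAV-TAU and 193 in AAV-STOP and a ratio of counts of 1.14 (1.08 to 1.19). Over the whole classes Gria4 was thus higher in AAV-TAU in CA1-like neurons and lower in granule-like ones. In the finer CA1-like clusters its log2 ratio ran from -0.01 to 0.18. It was -0.01 in finer cluster 3 (691 AAV-TAU and 908 AAV-STOP nuclei, 104 and 105 CPM). In finer cluster 4 it was 0.04 (738 and 725 nuclei, 341 and 331 CPM). The part of this unequal makeup in the class value was not tested. With marked doublets kept the CA1-like value of Gria4 was 0.02. A cluster of 1543 nuclei with CA1 as its best type (1.52) then fell under the naming limit of 1.6. The class was thus another set of nuclei, and the value does not show what the doublets alone changed. Cnih2 (0.21) and Cnih3 (0.15) had intervals above 1. Cnih2 was past the fold, at 0.29, with marked doublets kept and with the mean over nuclei of the CPM of each nucleus. Of 4 finer clusters, Cnih2 was above 0 in 3 and below 0 in 1. Cnih3 was above 0 in 2 and below 0 in 2, from -0.1 to 0.41. Inhibitory markers, 6 of 8 of them higher, were at 67.9 CPM in AAV-TAU and 57.4 CPM in AAV-STOP CA1-like nuclei, with 1 under 1 CPM in both libraries. Their part in the Gria4 and Cacng2 values was not tested. The median mitochondrial share was 0.216% and 0.119%.

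CA3-like neurons had none of the 8 genes read past the fold, where 8.47% of 6503 genes were higher and 1.29% lower. Gria1 (-0.02), Gria2 (0.01) and Cacng2 (-0.01) were level, with intervals that held 1. Gria4 had 188 CPM in AAV-TAU and 166 in AAV-STOP, a log2 ratio of 0.18 and a ratio of counts of 1.13 (1.05 to 1.23), but 0.01 with nuclei thinned to 1500 UMIs. Cacng3 was at -0.22 (0.714 to 0.989 as a ratio of counts), past the fold with median of ratios scaling (-0.31), and Gria3 at -0.11 (0.882 to 0.970). Cnih3, with 80 UMIs in AAV-TAU and 55 in AAV-STOP, was too low to be read. In the same nuclei inhibitory markers were at 47.6 CPM in AAV-TAU and 39.7 in AAV-STOP and oligodendrocyte markers at 279.9 and 245, with 6 of 8 higher in each list, and the median mitochondrial share was 0.132% and 0.0911%. Their part in these values was not tested.

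Inhibitory neuron-like nuclei had none of 9 genes past the fold, with a background of 8.40% higher and 1.71% lower among 7479 genes. Gria2 was lower, with 1009.7 CPM in AAV-TAU and 1113 in AAV-STOP, a log2 ratio of -0.14 and a ratio of counts of 0.908 (0.882 to 0.934), and it was lower in 5 of 5 finer clusters. Gria4, the pore gene that marks this class, was level at -0.02. Gria1 was at 0.05, turning to -0.03 with median of ratios scaling, and Gria3 at -0.08. Cacng2 (0.04), Cacng3 (-0.03) and Cacng8 (0.00) had intervals that held 1. With nuclei thinned to 1500 UMIs, 1 random draw that leaves fewer UMIs, Cacng8 was lower past the fold, at -0.44. With the mean over nuclei of the CPM of each nucleus it stayed inside its interval. Cacng8 was below 0 in 4 of 5 finer clusters, which ran from -0.64 to 0.29. Cnih3 had 29.9 CPM from 262 UMIs in AAV-TAU and 35.5 CPM from 330 UMIs in AAV-STOP, a log2 ratio of -0.22. It was past the fold with median of ratios scaling (-0.29) and at the coarser resolution (-0.38). At the coarser resolution the class also took in a cluster of 903 nuclei led by Ankfn1, Baiap3 and Glra3, which were also leading genes of cluster 14.

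**Figure D5:**
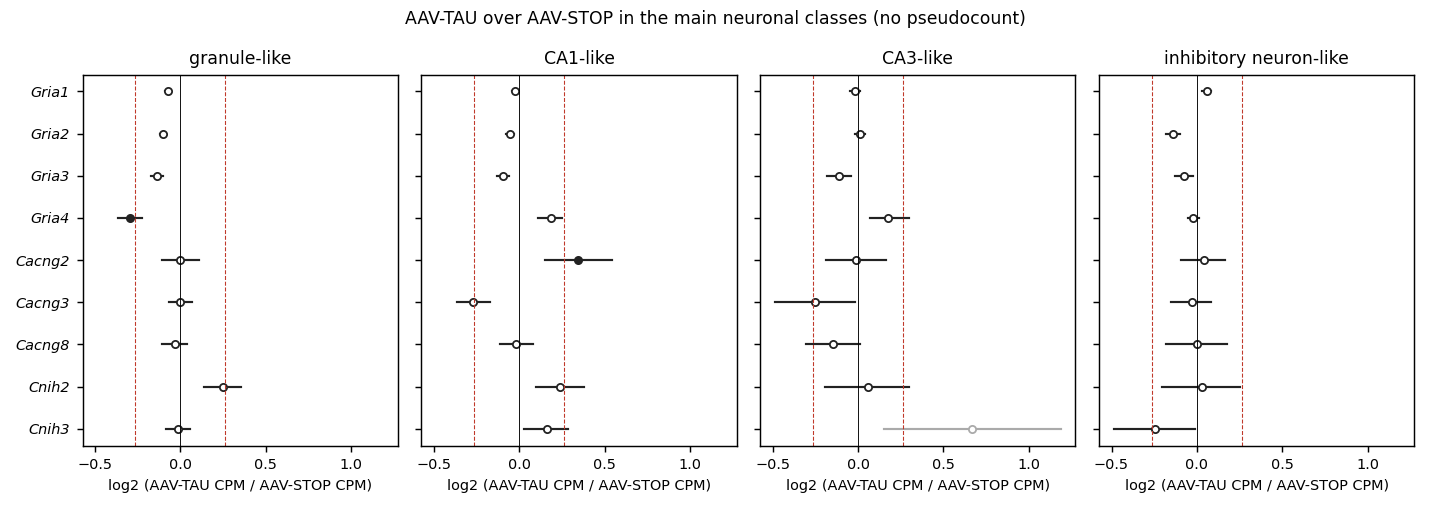
Log2 ratio of AAV-TAU CPM over AAV-STOP CPM, without a pseudocount, for the 9 genes in 4 neuronal classes, with exact 95% intervals of the ratio of counts. Filled points are past the fold with 5 CPM added to both levels, open points are not, and the grey point was not read. Dashed lines mark 1.2-fold, and Gria4 in granule-like neurons (-0.29 with the added 5 CPM) lies left of 0 while in CA1-like and CA3-like neurons it lies right of it.

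Within the inhibitory subtypes the differences past the fold were in 3 of 5 types. Cck-like cells had 882 CPM of Gria2 in AAV-TAU and 1076 in AAV-STOP (log2 ratio -0.29), 123 and 179.5 CPM of Gria3 (-0.52) and 909.5 and 1187 CPM of Gria4 (-0.38). That is 3 of 4 genes read, in a subtype of 139 AAV-TAU and 140 AAV-STOP nuclei where 11.4% of 1979 genes were lower past the fold and 11.1% higher. Lamp5-like cells had a lower Gria3, with 235 CPM in AAV-TAU and 315 in AAV-STOP (-0.41, background 6.54% lower and 12.5% higher). Vip-like cells had a lower Gria1, with 835 and 1061 CPM (-0.34, background 12.8% lower and 9.46% higher). In Pvalb-like and Sst-like cells none of 6 and none of 7 genes read were past the fold, where 7.25% and 6.58% of genes were lower and 8.35% and 13.1% higher. The Gria2 share of the Cck type was nearly the same in both libraries (29.0% in AAV-TAU and 29.5% in AAV-STOP).

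The other neuronal and glial classes held few differences. None of 9 genes read in subicular or cortical-like neurons was past the fold, where 12.7% of 6002 genes were higher and 3.23% lower. The same held for 6 genes in immature neuron-like nuclei (background 11.1% higher, 9.76% lower), where Gria1 had 2096 CPM in AAV-TAU and 1902 in AAV-STOP (log2 ratio 0.14, 1.05 to 1.16 as a ratio of counts). It held for 4 genes in CA2-like neurons (5.00% higher, 10.4% lower), where Gria3 was at -0.19 (0.795 to 0.966), and for 3 genes in Cajal-Retzius-like neurons (13.2% higher, 21.6% lower). It also held for 4 genes in oligodendrocyte precursor-like nuclei (15.0% higher, 8.53% lower), with Gria2 at -0.15 and Gria3 at -0.18, for 2 genes in astrocyte-like nuclei (18.4% higher, 18.2% lower) and for 3 in fibroblast-like nuclei (17.5% higher, 24.3% lower).

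Outside neurons, 4 pairs of gene and class were past the fold. Microglia-like nuclei had 417 CPM of Gria1 in AAV-TAU and 556 in AAV-STOP (log2 ratio -0.41, 0.639 to 0.883 as a ratio of counts) and 626 and 765 CPM of Gria2 (-0.29, 0.715 to 0.937), from 521 and 173 nuclei. Here 7.75% of 1704 genes were lower and 28.1% higher. Whether this is RNA of the microglia or free RNA was not tested. Newly formed oligodendrocyte-like nuclei had 313 CPM of Gria1 from 200 UMIs in AAV-TAU and 228 CPM from 175 UMIs in AAV-STOP (0.45, 1.12 to 1.69), both under the microglial level in CPM, where 12.2% of 1221 genes were higher and 18.3% lower. Oligodendrocyte-like nuclei had 74.0 CPM of Cnih2 from 395 UMIs in AAV-TAU and 52.8 CPM from 245 UMIs in AAV-STOP (0.45, 1.19 to 1.65), where 18.6% of 7270 genes were higher and 4.81% lower and genes up to 10 kb had a median of 0.25. Cnih2 was above 0 in 7 of 7 classes in which it was read, where 70.8% to 89.9% of all genes read of up to 10 kb were above 0. Gria3 was below 0 in 8 of 10, where only 31.4% to 45.0% of genes over 100 kb were above 0. The part of gene length in these directions was not tested.

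The numbered clusters held the largest single difference, Cacng3 in cluster 9. It had 119 CPM from 439 UMIs in AAV-TAU and 267 CPM from 1320 UMIs in AAV-STOP, a log2 ratio of -1.13 and a ratio of counts of 0.447 (0.400 to 0.498). The cluster was also made up differently in the libraries. At the finer resolution it held cluster 22, with 349 AAV-TAU and 247 AAV-STOP nuclei and a Cacng3 ratio of -1.30 (74.8 and 192 CPM). It also held cluster 29, with 106 and 252 nuclei and a ratio of -0.71 (219.8 and 362 CPM), and cluster 48, with 57 nuclei in each library and a ratio of 0.24 (172 and 145 CPM). Cacng3 was thus lower in AAV-TAU in 2 of the 3 finer clusters, and the part of the unequal makeup in the ratio of cluster 9 was not tested. Gria3 (786 and 1067 CPM, -0.44) was lower and Cnih2 (42.9 and 29.8 CPM, 0.46) higher in cluster 9, where 9.08% of 6463 genes were lower and 25.0% higher.

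Cacng3 was also lower past the fold in cluster 11, with 69.5 CPM in AAV-TAU and 88.9 in AAV-STOP (-0.33, background 2.61% of 5871 genes lower and 9.25% higher), and in cluster 13, with 141 and 174 CPM (-0.30, background 4.58% of 4319 genes lower and 12.6% higher). In Sst-like cells, with 178 CPM in AAV-TAU and 159.7 in AAV-STOP, it was at 0.15. In cluster 14 Cnih3 had 29.8 CPM from 38 UMIs in AAV-TAU and 54.1 CPM from 175 UMIs in AAV-STOP (-0.76, 0.377 to 0.786 as a ratio of counts), where 13.8% of 3995 genes were lower and 7.81% higher. Cacng2 was past the fold in cluster 14 (88.7 and 72.7 CPM, 0.27) and Cnih2 in cluster 17 (50.8 and 39.6 CPM, 0.32), both with intervals that held 1 and with 15.6% of 4978 genes higher and 3.70% lower in cluster 17. In cluster 7 none of 5 genes read was past the fold, where 22.4% of 3512 genes were higher and 10.2% lower.

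Few genes of the rest of the receptor pathway were past the fold in the main neuronal classes. In granule-like neurons none of 9 other auxiliary proteins read (of 14), none of 11 assembly and RNA editing genes and none of 15 scaffold and trafficking genes (of 18) were past the fold, with median log2 ratios of -0.04, 0.01 and 0.06 beside 0.05 for all genes read. Of 9 synaptic organisers (of 10), Lrrtm3, a postsynaptic adhesion protein, was lower, with 146 CPM in AAV-TAU and 180.1 in AAV-STOP (-0.29, 0.776 to 0.847). Of 10 NMDA, kainate and delta receptor subunits (of 13), Grin3a, an NMDA receptor subunit of low calcium permeability, was higher, with 31.6 and 24.0 CPM (0.34). Of all genes read in this class 8.29% were higher and 0.283% lower. The 9 AMPA receptor genes themselves had a median of -0.03 in this class, 2 above and 6 below 0.

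In CA1-like neurons Grin3a was higher too, with 82.8 CPM in AAV-TAU and 59.3 in AAV-STOP (0.45, 1.28 to 1.52), as were Nptx1, a secreted pentraxin that gathers AMPA receptors (48.2 and 37.3 CPM, 0.33), and Adarb2, a relative of the editing enzyme without known activity of its own (22.6 and 17.7 CPM, 0.28). Olfm3, an olfactomedin found with AMPA receptors, was lower (45.8 and 56.4 CPM, -0.27). These were 1 of 9 receptor subunits, 1 of 9 organisers, 1 of 11 assembly and editing genes and 1 of 8 auxiliary proteins read, and none of 15 scaffold genes was past the fold. Over these 5 lists that is 3 genes higher and 1 lower of 52, where 7.70% of all genes read in the class were higher and 0.336% lower. The medians were -0.02, 0.01, 0.14 and -0.07, with 0.06 for scaffolds. In CA3-like neurons Akap5, a scaffold for kinases, was the only list gene past the fold (20.3 and 16.0 CPM, 0.27, with an interval that held 1). In inhibitory neuron-like nuclei it was Rab11a, a small GTPase of recycling endosomes (29.2 and 22.6 CPM, 0.31, 1.07 to 1.56). Among all genes read 8.47% were higher in the CA3-like class and 8.40% in the inhibitory class. List medians ran from -0.04 to 0.08 in CA3-like and from -0.08 to 0.06 in inhibitory neuron-like nuclei, beside 0.05 and 0.03 for all genes read.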

How the data were processed

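The deposited counts are UMIs per gene and filtered barcode from 10x Genomics 3' libraries, made by the authors on mm10. Per the file headers this was Cell Ranger 8.0.1, while the submitters' processing notes name Cell Ranger 4.0 and Seurat 4.4.0. The limits for a nucleus were 500 UMIs, 300 genes and a mitochondrial share of 5% (2 AAV-TAU and 4 AAV-STOP barcodes left out), and doublets marked per library by comparison with simulated doublets (expected rate 0.15) were left out: 1737 AAV-TAU (8.86%) and 2316 AAV-STOP (11.4%) barcodes. Total UMIs were 109428807 in AAV-TAU and 130252240 in AAV-STOP.

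The 35802 nuclei were scaled to 10000 counts, log transformed and clustered together (3000 variable genes, 30 principal components, 15 neighbours, leiden resolution 1) with Python 3.11.15, numpy 2.4.6, scipy 1.17.1, scikit-image 0.26.0, leidenalg 0.10.2 and igraph 0.11.9, without the genes of the AMPA receptor lists. Of 56 clusters, 22 were named as 15 classes. Naming asked for a mean log2 level of marker genes of 1.6 or more over the median cluster, a lead of 0.3, at least 3 markers raised over 2-fold at 10 CPM, and 10 leading genes in which no other type had more of its markers. Glial or vascular clusters with Rbfox3 above 30% of the neuronal median stayed unnamed. Subtypes needed a mean of 1.0. These thresholds were set after seeing the data, and 8873 nuclei stayed unnamed. Mossy-like nuclei (80 AAV-TAU, 71 AAV-STOP) were too few to compare, and numbered clusters needed 200 nuclei in each library.

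UMIs were summed per class and library. Intervals are exact Poisson intervals for CPM, exact intervals for ratios of counts and Clopper-Pearson intervals for shares, and with 1 library per group they cover counting error and not mice. Named genes are all 9 members, up to 3 genes per list and class past the fold with the largest ratio, and the 3 genes most like each member by Pearson correlation of log2(CPM + 5), without gene models named Gm or Rik. The members and lists were chosen with earlier results of these data known, among them the lower Gria4 in granule-like neurons. Of 32285 gene identifiers 32235 were in GENCODE vM21. Figures were drawn with matplotlib 3.10.9.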

Additional observations from a re-analysis of the deposited data

Results flagged for a closer look

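Counting only pairs of gene and named class that were read, in 3 genes the AAV-TAU over AAV-STOP ratio had its counting interval below 1 in one class and above 1 in another. Gria1 had a log2 ratio of -0.41 in microglia-like and 0.45 in newly formed oligodendrocyte-like nuclei, where its level lay under the microglial one in CPM. Gria4 had -0.29 in granule-like and 0.18 in CA3-like neurons. Cnih3 had -0.22 in inhibitory neuron-like and 0.15 in CA1-like nuclei. Inside the CA1-like class it was above 0 in 2 and below 0 in 2 of 4 finer clusters. With 1 library per group the difference between classes was not tested.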

How the results depend on the processing

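No paired analysis was possible because each group has 1 library, and none could be left out. Over the 4 main neuronal classes the count of genes past the fold (1 higher, 1 lower) moved with several settings. Higher calls were 0 at resolution 2, with median of ratios scaling and at a fold of 1.5, and 2 with the mean over nuclei and with no filter on low counts. With marked doublets kept the higher call was Cnih2 in CA1-like neurons (0.29) in place of Cacng2. Lower calls were 2 at resolution 0.5, with nuclei thinned to 1500 UMIs (Gria4 in granule-like nuclei and Cacng8, at -0.44, in inhibitory neuron-like nuclei) and with a pseudocount of 1 CPM, 4 with median of ratios scaling, and 0 at resolution 2 and at a fold of 1.5. Median of ratios scaling set the median of all genes read at -0.04 in place of 0.05 in granule-like neurons, where 65.8% in place of 96.7% of all calls were higher. The Gria2 share of inhibitory minus granule-like nuclei, -16.1 percentage points in AAV-TAU and -14.7 in AAV-STOP, was -14.9 and -12.3 at resolution 0.5, -15.1 and -13.8 with marked doublets kept, and -15.4 in AAV-TAU with a mitochondrial share of at most 0.5%. At resolution 0.5 the inhibitory class also held a cluster of 903 nuclei led by Ankfn1, Baiap3 and Glra3, so it was not the same set of nuclei. Among 324 recomputed log2 ratios 289 stayed in their interval and 33 moved. The other 2 turned sign in pairs whose main interval excluded 1. Gria3 in CA3-like neurons was 0.05 with thinned nuclei in place of -0.11. Gria1 in inhibitory neuron-like nuclei was -0.03 with median of ratios scaling in place of 0.05. Sign changes in pairs whose main interval held 1 were not counted as turned. Cnih2 in CA3-like neurons, at 0.05, ran from -0.34 to 0.11. The cause was not tested, and the thinning was 1 random draw of UMIs from each nucleus. Gria4 in granule-like neurons ran from -0.38 to -0.26 and was inside the fold at resolution 2. Cacng2 in CA1-like neurons ran from 0.21 to 0.54. The class with the highest level was unchanged for 9 of 9 genes when they were candidates for clustering. Depth limits the auxiliary genes in small classes, and the count of mice limits every comparison.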
